A study of Mus musculus with 7 samples.

Results

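The matrix metalloproteinases (MMPs) and tissue inhibitors of metalloproteinases (TIMPs) described here are 10 mouse genes found by symbol among 46603 gene rows. They are 7 proteases (Mmp2, Mmp3, Mmp9, Mmp10, Mmp11, Mmp13 and Mmp14) and 3 inhibitors (Timp1, Timp2 and Timp3). All 10 had enough reads to be among the 16731 genes tested. They were measured by RNA sequencing in TRAMP-C1, a prostate tumour line of the C57BL/6-TgN(TRAMP)8247Ng mouse, whose transgene causes prostate tumours. In 3 libraries the cells carried a PAX8-NFE2L2 fusion gene delivered by lentivirus, in 3 they carried the matching empty vector, and 1 library was labelled WT, with no vector named. The fusion joins PAX8, which directs the development of thyroid and kidney, to NFE2L2, which encodes NRF2, an activator of antioxidant genes. The study's design text names fusion against empty vector as its comparison. All cells come from this 1 line, and transduced cells were grown for 24 h after 12 h with virus. Nothing in the labels says that libraries of a group came from separate cultures, so the p-values speak to the spread among these 7 libraries alone, which may be technical.

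MMPs are zinc-dependent proteases that cut collagens, other matrix proteins and many secreted or surface proteins. Most are made as inactive proforms that other proteases open, and TIMPs block the active enzymes by binding their catalytic zinc. In prostate tumours, as in other solid tumours, the balance between the enzymes and their inhibitors is studied for its part in matrix breakdown and invasion. Transcript levels do not measure secretion, activation or inhibition.

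Libraries held 26368182 to 59597170 gene counts, given below as CPM (counts scaled to a library of 1000000 gene counts). Having 0 reads allows a level of up to 0.0503 to 0.114 CPM, depending on the library. Pax8, whose reads check the construct, lay at 6.40, 8.53 and 5.57 CPM in fusion libraries 1, 2 and 3, against 0.0334, 0.0358 and 0.217 CPM in the empty vector libraries and 0.0401 CPM in WT. The cell type is labelled prostate epithelial. Among epithelial markers, Hoxb13 stayed under 0.1 CPM in every library, Epcam reached at most 0.530 CPM and Krt8 at most 1.90 CPM. The summed level of 10 fibroblast markers was 7376 to 13279 CPM in fusion, 13004 to 16619 CPM in empty vector and 20899 CPM in WT libraries. Both libraries numbered 3 were sequenced in other lanes than the rest. They held the fewest gene counts, 26368182 with the fusion and 40089266 with empty vector. They also had the largest shares of reads with several alignments, 44.8% and 45.3%, against 36.1 to 38.9% in the others. They stood apart in several members, so their values are given separately.

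Mmp13 and Mmp9 rose in the fusion libraries, and they were the 2 proteases of 7 that passed the test there. Over all genes tested, 1.69% were called higher with the fusion (adjusted p under 0.05 by the quasi-likelihood test of edgeR), and 2.04% in either direction. The same pair were the members in which every fusion library lay above every empty vector library, an arrangement seen in 9.15% of all genes tested. None of the 3 inhibitors passed with edgeR, and none had an unadjusted p under 0.05 with edgeR or DESeq2. The median log2 fold change was 0.37 over the proteases and 0.06 over the inhibitors, against 0.01 over all genes tested. In these bulk libraries, more RNA per cell and more cells making a transcript cannot be told apart.

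**Figure D1:**
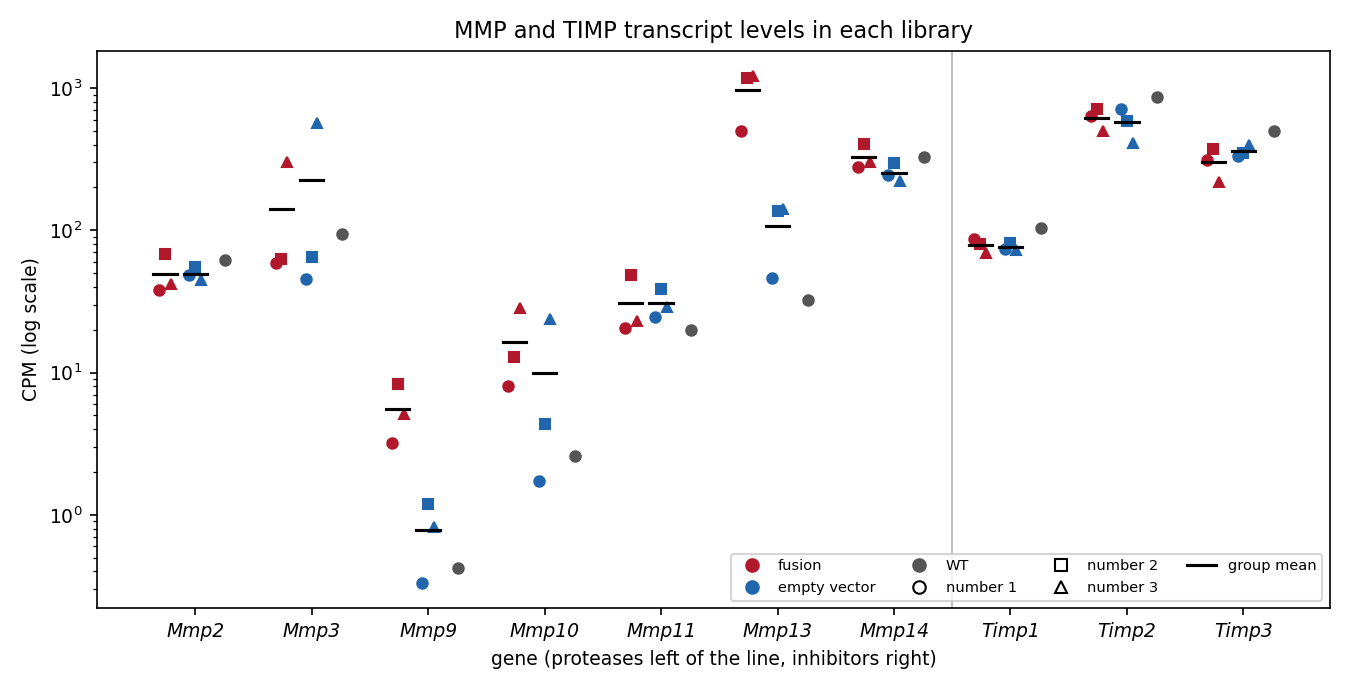
Level of each gene in each library, in CPM on a log axis, with proteases left of the vertical line and inhibitors right of it; for each gene, fusion points stand left of empty vector points and WT stands last, and bars give group means. Mmp13 lay at 503 to 1214 CPM in fusion libraries and 46.3 to 141 CPM in empty vector libraries, and the libraries numbered 3 stand high in Mmp3 in both groups.

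Mmp13, Mmp3 and Mmp10 lie on the plus strand of chromosome 9 in one cluster of Mmp genes, and their promoters are shown. Mmp13 passed the test, and Mmp3 and Mmp10 did not. Whether these neighbours differ in their change with the fusion was not tested. The sequences are the last 150 bases before each RefSeq start in GRCm38.p6, written 5′ to 3′, and Timp1 is shown beside them as an inhibitor that did not pass the test. Capitals mark an AP-1 site (TGANTCA, bound by FOS and JUN dimers) and a TATAAA box.
Mmp13: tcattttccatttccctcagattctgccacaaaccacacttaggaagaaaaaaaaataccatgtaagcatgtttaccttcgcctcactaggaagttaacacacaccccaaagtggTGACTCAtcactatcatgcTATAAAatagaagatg
Mmp3: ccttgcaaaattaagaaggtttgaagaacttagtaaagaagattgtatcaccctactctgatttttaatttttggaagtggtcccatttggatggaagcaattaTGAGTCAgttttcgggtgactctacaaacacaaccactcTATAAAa
Mmp10: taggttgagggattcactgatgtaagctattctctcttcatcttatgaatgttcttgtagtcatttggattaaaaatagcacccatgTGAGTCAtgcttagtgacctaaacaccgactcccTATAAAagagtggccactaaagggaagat
Timp1: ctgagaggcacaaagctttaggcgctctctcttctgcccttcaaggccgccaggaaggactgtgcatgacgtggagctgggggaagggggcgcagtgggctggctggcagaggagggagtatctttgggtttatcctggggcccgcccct

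These stretches span chr9:7272364-7272513 for Mmp13, chr9:7445672-7445821 for Mmp3, chr9:7502192-7502341 for Mmp10 and chrX:20870016-20870165 for Timp1, all on the plus strand. RefSeq windows of 250 bases before to 50 after the start were searched on both strands for 8 of the 10 members, all but Mmp2 and Mmp9. TGANTCA was found in the windows of Mmp13, Mmp3 and Mmp10, against 7.81% of 32851 promoter windows, and TATAAA in the same 3, against 13.6%. The AP-1 letters lay at bases -35 to -29 of Mmp13, -46 to -40 of Mmp3 and -63 to -57 of Mmp10. The core of the antioxidant response element through which NRF2 acts, TGACNNNGC, was found in the Timp2 window alone of the 8, at -152 to -144, against 12.4% of all windows. A match is a run of letters and not a measured binding site. What part these letters have in the levels of the genes was not tested.

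Mmp13 (ENSMUSG00000050578.9, GRCm38 chromosome 9:7272514-7283331) encodes collagenase-3, the main interstitial collagenase of mice, which cuts fibrillar collagens. Its level was 503, 1179 and 1214 CPM in fusion libraries 1, 2 and 3, against 46.3, 136 and 141 CPM in the empty vector libraries and 32.3 CPM in WT. The groups did not overlap, and replicate 1 was the lowest library of both. The means were 965 ± 401 CPM with the fusion and 108 ± 53.4 CPM with empty vector (SD, n = 3 each), an 8.95-fold ratio. The fitted log2 fold change was 3.16 (SE 0.51, 95% interval 1.98 to 4.34, edgeR adjusted p = 0.0215), and Mmp13 stood 152nd by fold change and 192nd by p among the 16731 genes. It was the 70th most abundant transcript by mean CPM in fusion libraries and the 2245th in empty vector libraries. Within each replicate number the ratio of fusion to empty vector was 10.9, 8.65 and 8.61, so the size of the difference varied less than the levels did. The call was lost without fusion replicate 2 (edgeR adjusted p = 0.0674) or empty vector replicate 2 (0.0708), with log2 fold changes of 2.99 and 3.37, and held without any of the other 4 libraries.

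Mmp9 (ENSMUSG00000017737.2, chromosome 2:164940780-164955850) encodes gelatinase B, which digests denatured collagen and basement membrane collagen and is abundant in neutrophils. Fusion libraries 1, 2 and 3 held 3.22, 8.37 and 5.09 CPM, against 0.334, 1.20 and 0.818 CPM in the empty vector libraries and 0.421 CPM in WT. These values rest on 169, 457 and 136 fusion reads, 20, 67 and 34 empty vector reads and 21 WT reads. The groups did not overlap, and every value lay far under those of Mmp13. The means were 5.56 ± 2.61 CPM with the fusion and 0.784 ± 0.434 CPM with empty vector (SD, n = 3 each), a 7.09-fold ratio. The fitted log2 fold change was 2.83 (SE 0.54, 95% interval 1.58 to 4.08, edgeR adjusted p = 0.0422), and the ratio within replicate numbers was 9.64, 6.98 and 6.22. This call held without fusion replicate 1 (edgeR adjusted p = 0.0483) and was lost without any other single library (0.0576 to 0.131), while the log2 fold change stayed between 2.40 and 3.29. Since neutrophils and macrophages also make MMP9, their markers were read beside it. The sum of 12 such markers was 62.6 to 88.5 CPM in fusion, 30.7 to 33.2 CPM in empty vector and 32.6 CPM in WT libraries, mostly Cd14. Cd14, a lipopolysaccharide co-receptor, rose to 68.6 ± 13.4 CPM with the fusion, against 28.7 ± 1.70 CPM with empty vector (edgeR adjusted p = 0.0224), and was 1 of the 4 markers tested to pass. Adgre1, S100a9 and Mpo had 0 reads in every library, and Ptprc, the pan-leukocyte marker, reached at most 0.486 CPM.

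**Figure D2:**
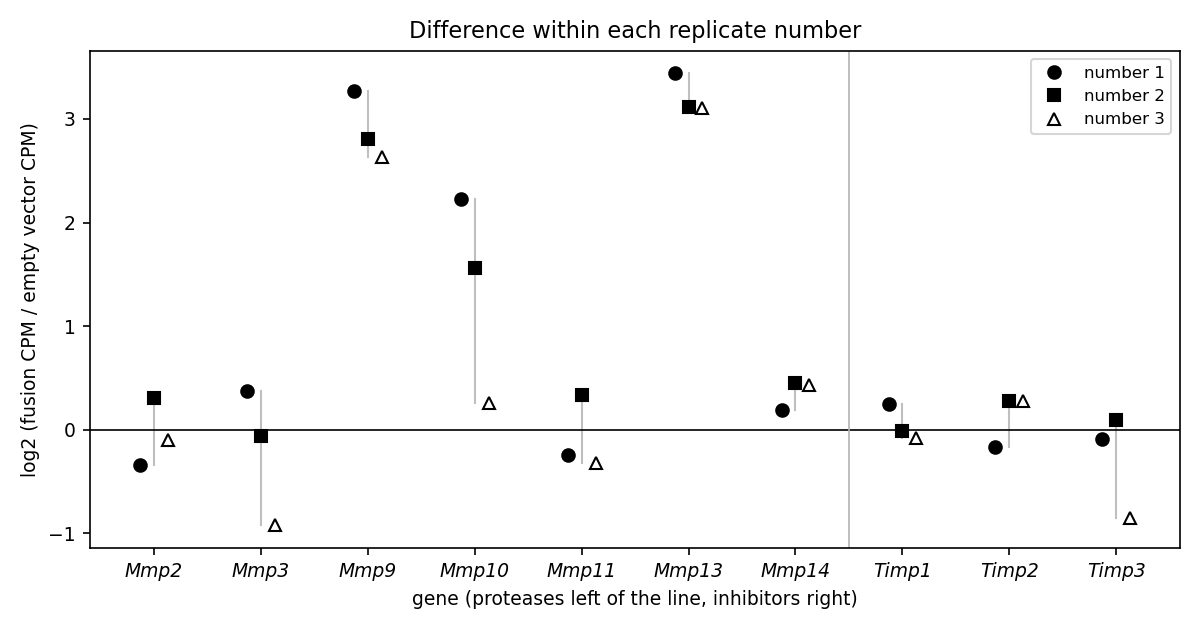
Difference of fusion from empty vector within each replicate number, as the log2 ratio of their CPM, for proteases left of the line and inhibitors right of it. Mmp13 and Mmp9 lie above 2.6 at all 3 numbers, the points of Mmp10 descend to 0.25 at number 3, and those of the inhibitors lie on both sides of 0.

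The stromelysins Mmp3 and Mmp10 cut proteoglycans, laminin and non-fibrillar collagens and activate other proMMPs. In both genes the libraries numbered 3 were the highest of their groups. Mmp3 (ENSMUSG00000043613.7, chromosome 9:7445822-7455975) lay at 59.3, 62.6 and 301 CPM in fusion libraries 1, 2 and 3, against 45.8, 65.3 and 571 CPM in the empty vector libraries and 93.4 CPM in WT. Number 3 exceeded the mean of numbers 1 and 2 by 4.93-fold with the fusion and by 10.3-fold with empty vector. The groups overlapped, with a log2 fold change of -0.69 (95% interval -2.99 to 1.61, edgeR adjusted p = 0.959). Leaving out empty vector replicate 3 gave 1.34, and leaving out fusion replicate 3 gave -1.90, so that the sign rests on which library numbered 3 is kept.

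Mmp10 (ENSMUSG00000047562.2, chromosome 9:7502352-7510240) lay at 8.06, 12.8 and 28.4 CPM in fusion libraries 1, 2 and 3, against 1.72, 4.33 and 23.8 CPM in the empty vector libraries and 2.59 CPM in WT. Fusion was the higher at each number, by 4.68-, 2.95- and 1.19-fold, yet empty vector library 3 lay above fusion libraries 1 and 2. The log2 fold change was 0.72 (95% interval -1.29 to 2.73, edgeR adjusted p = 0.936), and with a block for the replicate number it was 1.31 (adjusted p = 0.117). On numbers 1 and 2 alone, an alternative chosen after the values were seen, the blocked fit gave 1.88 (edgeR adjusted p = 0.00052) and called 11.2% of all genes higher. The same libraries without the block gave 1.79, which did not pass (edgeR adjusted p = 0.2002). Fibroblast markers did not move together at number 3: of 10, Dcn, Lum and Fap had their highest level of both groups there, Col1a1, Pdgfra and Pdgfrb their lowest, and the other 4 neither. Lum, a collagen-binding proteoglycan, had 34.2 CPM in fusion library 3 and 140 CPM in empty vector library 3, against at most 21.4 CPM in any other library. Dcn, another matrix proteoglycan, had 448 CPM in fusion library 3 and 801 CPM in empty vector library 3, against at most 336 CPM elsewhere. What part the sequencing lane, the depth or the share of reads with several alignments has in these levels was not tested.

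Mmp14, Mmp2 and Mmp11 were expressed in every library and did not pass the test. Mmp14 (ENSMUSG00000000957.9, chromosome 14:54431612-54445364) encodes the membrane-anchored protease that activates proMMP2 on the cell surface. It lay at 277, 403 and 300 CPM in fusion libraries 1, 2 and 3, against 243, 295 and 222 CPM in the empty vector libraries and 330 CPM in WT. Its log2 fold change was 0.37 (95% interval -0.15 to 0.88, edgeR adjusted p = 0.701), with ratios of 1.14, 1.37 and 1.35 within the numbers. With the replicate block the value was 0.36 and passed (edgeR adjusted p = 0.0442), in a fit that called 7.63% of all genes higher and 13.1% in either direction. Mmp9, Mmp10, Mmp13 and Mmp14 were the members higher with the fusion at all 3 numbers, as were 27.8% of all genes tested.

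Mmp2 (ENSMUSG00000031740.7, chromosome 8:92827291-92853420) encodes gelatinase A, the enzyme that MMP14 activates. Its level was 38.0, 67.8 and 42.0 CPM in fusion libraries 1, 2 and 3, against 48.2, 54.8 and 44.9 CPM in the empty vector libraries and 61.9 CPM in WT. The group means were 49.3 CPM in both, and the 95% interval of the log2 fold change was -0.59 to 0.59 (edgeR adjusted p = 1.00). Mmp11 (ENSMUSG00000000901.14, chromosome 10:75923222-75936496, minus strand) encodes stromelysin-3, which furin-like enzymes activate inside the cell. It held 20.7, 48.4 and 23.2 CPM in fusion libraries 1, 2 and 3, against 24.5, 38.5 and 28.9 CPM in the empty vector libraries and 19.8 CPM in WT. The 95% interval of its log2 fold change was -0.80 to 0.81 (edgeR adjusted p = 0.999). Replicate 2 was the highest library of both groups in each of these genes, and 5.58% of the Mmp11 exon bases overlap Chchd10 on the opposite strand, which reached at most 1.16 CPM.

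In all 3 inhibitors the fusion and empty vector libraries overlapped. Timp1 (ENSMUSG00000001131.10, chromosome X:20870166-20874735) encodes a secreted inhibitor that binds proMMP9. It lay at 87.4, 80.7 and 69.2 CPM in fusion libraries 1, 2 and 3, against 73.5, 81.3 and 73.1 CPM in the empty vector libraries and 105 CPM in WT. The log2 fold change was 0.06, and its 95% interval of -0.36 to 0.48 is the narrowest among the 10 members (edgeR adjusted p = 0.989). Timp1 lies inside Syn1, a gene of the opposite strand, with no shared exon base.

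Timp2 (ENSMUSG00000017466.8, chromosome 11:118301069-118355740, minus strand) encodes an inhibitor that also links proMMP2 to MMP14 for activation. Fusion libraries 1, 2 and 3 held 639, 712 and 498 CPM, against 717, 590 and 412 CPM in the empty vector libraries and 865 CPM in WT. The log2 fold change was 0.11 (95% interval -0.49 to 0.70, edgeR adjusted p = 0.979), with replicate 3 lowest in both groups. Timp3 (ENSMUSG00000020044.12, chromosome 10:86300372-86349506) encodes an inhibitor that stays bound to the matrix and also blocks ADAM proteases. Its level was 310, 372 and 220 CPM in fusion libraries 1, 2 and 3, against 331, 348 and 398 CPM in the empty vector libraries and 499 CPM in WT. The log2 fold change was -0.26 (95% interval -0.80 to 0.29, edgeR adjusted p = 0.886), and the lowest value stood in fusion library 3. Of the Timp3 exon bases, 21.3% overlap Syn3 on the opposite strand, which reached at most 0.374 CPM.

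**Figure D3:**
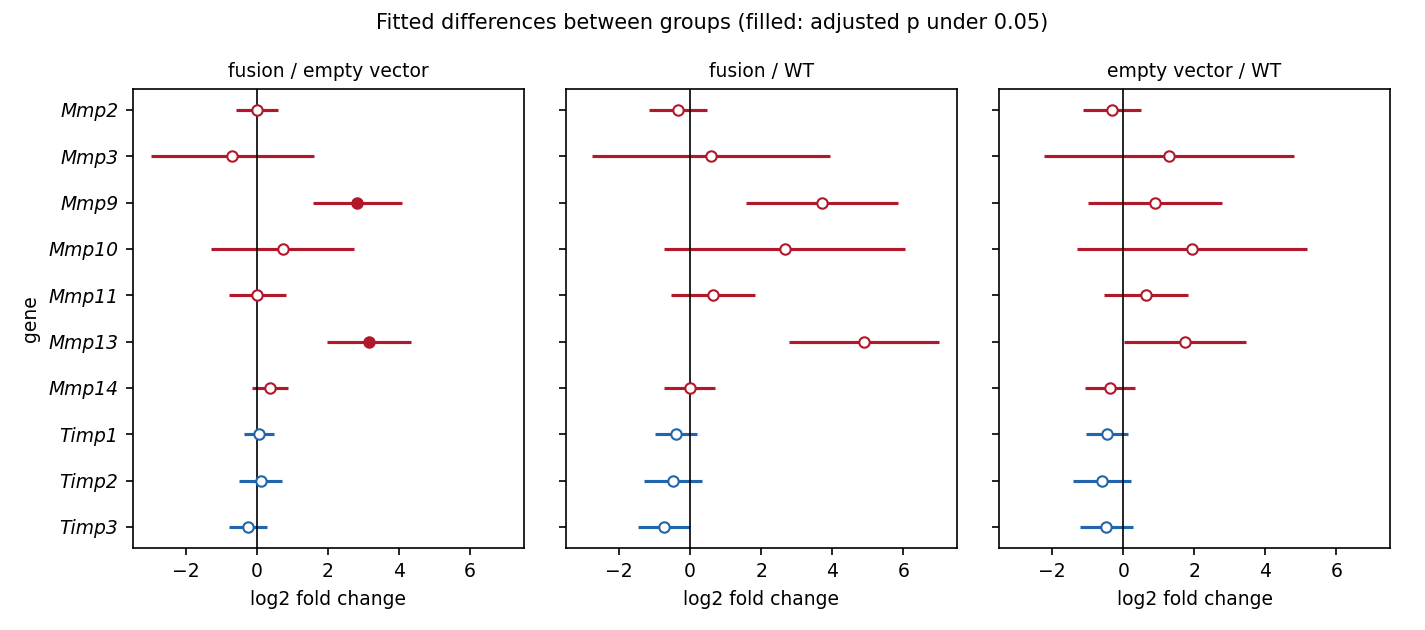
Fitted log2 fold changes with their 95% intervals in 3 panels, fusion over empty vector, fusion over WT and empty vector over WT, with genes down the page. In the first panel the intervals of Mmp13 (1.98 to 4.34) and Mmp9 (1.58 to 4.08) lie wholly above 0 and those of the 3 inhibitors span it.

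Comparisons with the single WT library use the same fusion and empty vector libraries again. The fitted log2 fold change of fusion over WT was 4.90 for Mmp13 (95% interval 2.80 to 7.01) and 3.72 for Mmp9 (1.58 to 5.85). The ratios of means were 29.9-fold and 13.2-fold. The edgeR calls given next come from the main fit, with its filter on low counts. Neither passed with edgeR in all 7 libraries (adjusted p = 0.0787 and 0.189), where 0.436% of genes were called in either direction. No member passed there, and 2 had an unadjusted p under 0.05. Mmp13 and Mmp9 were called by DESeq2 (adjusted p = 5.4e-11 and 0.00014), which called 2.98% of genes. They were also called by edgeR with the replicate block, which called 9.81%, with smaller log2 fold changes of 3.86 and 2.79 (adjusted p = 0.0016 and 0.0153). WT lay below every fusion library in 4 proteases, Mmp9, Mmp10, Mmp11 and Mmp13, as it did in 23.8% of all genes. It lay above every fusion library in all 3 inhibitors, as it did in 22.7% of all genes.

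Empty vector over WT gave no call among the 16731 genes with edgeR (0%), with 746 at an unadjusted p under 0.05, 20 called with the replicate block (0.12%) and 77 by DESeq2 (0.521%). No member was called by any of these. The largest member value with an interval clear of 0 was that of Mmp13, with a log2 fold change of 1.74 (95% interval 0.02 to 3.46, edgeR unadjusted p = 0.0475, adjusted p = 1). The ratio of means was 3.34-fold, and with the replicate block the log2 fold change was 0.64. WT lay below every empty vector library in Mmp11 and Mmp13 (21.6% of all genes) and above every one in Mmp2, Mmp14 and the 3 inhibitors (22.7%). In the main fit the log2 fold changes of Timp1, Timp2 and Timp3 were -0.46, -0.59 and -0.48, each with an interval that spans 0. With the replicate block they were -0.41, -0.41 and -0.49, and the interval of Timp1 no longer spanned 0. Those of Mmp13, Mmp14 (-0.52) and Mmp2 (-0.50) were also clear of 0 in that fit. With 1 WT library, its spread is taken from the other groups.

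Levels were compared between genes after counts were divided by exon length, as CPM per kb of exons. The length counts all annotated exons of a gene together, which can exceed that of the transcript made in these cells. The order of genes and the sums on this scale are therefore approximate. On that scale Mmp13 stood first in fusion libraries, at 361 ± 150, ahead of Timp2 at 158 ± 27.9, and their ranges did not overlap. Timp1 (89.1), Mmp3 (78.2) and Mmp14 (54.8) followed with neighbouring ranges that overlap, then Timp3 (36.9), Mmp2 (14.6), Mmp11 (11.1), Mmp10 (9.54) and Mmp9 (1.57). In empty vector libraries Timp2 (147), Mmp3 (126) and Timp1 (85.6) came first, and the range of Mmp3 overlaps those of both inhibitors. The place of Mmp3 rests on library 3, with 25.4, 36.3 and 317 in empty vector libraries 1, 2 and 3. On numbers 1 and 2 alone, a choice made after the values were seen, Mmp3 averaged 33.8 with the fusion and 30.8 with empty vector and stood sixth in both groups. On the means of all 3 empty vector libraries, Timp3 (44.1), Mmp14 (42.5) and Mmp13 (40.4) followed Timp1, and their ranges overlap. After them came Mmp2 (14.6), Mmp11 (11.0), Mmp10 (5.78) and Mmp9 (0.222). In WT the 3 inhibitors led, with Timp2 at 222, Timp1 at 118 and Timp3 at 61.3, and Mmp13 was seventh at 12.1. Mmp13 was thus the transcript that changed place most between the groups, and Mmp9 stayed last in all.

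**Figure D4:**
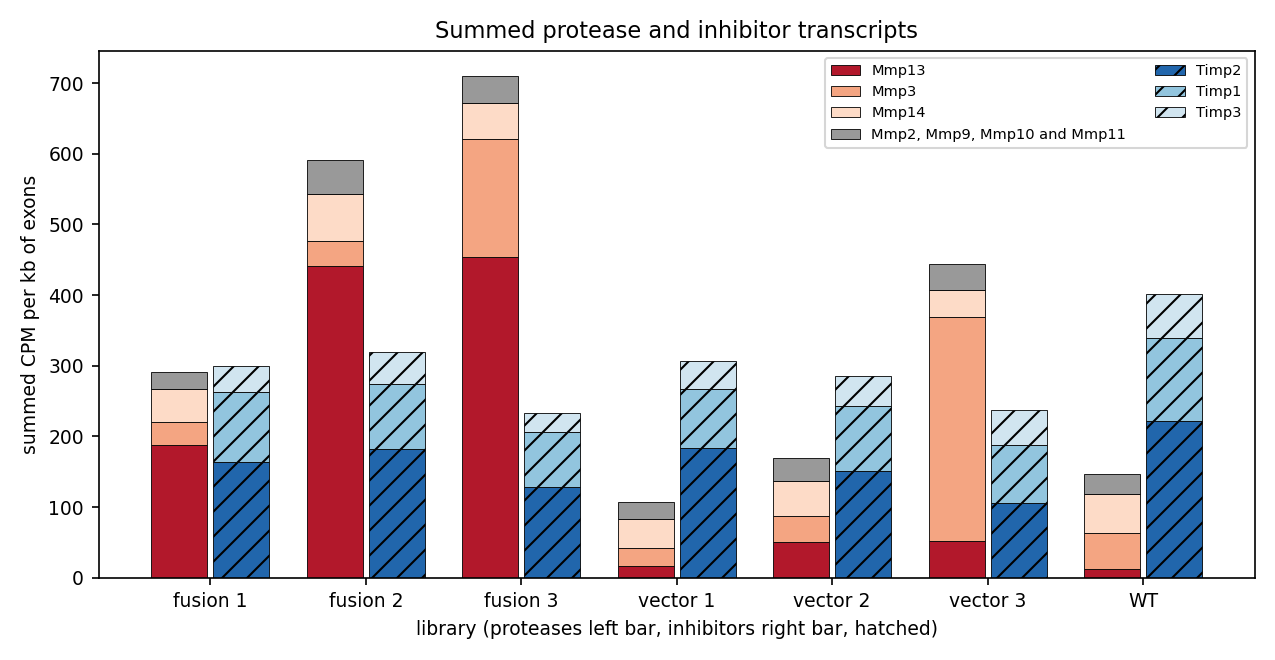
Summed level of the 7 proteases (left bar, by gene) and of the 3 inhibitors (right bar, hatched) in each library, in CPM per kb of exons. Mmp13 fills 64.0 to 74.7% of the protease bar in fusion libraries and 11.9 to 30.0% in empty vector libraries, and Mmp3 fills 71.3% in empty vector library 3.

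Summed over the 7 proteases, fusion libraries 1, 2 and 3 held 292, 591 and 710 CPM per kb, against 108, 170 and 445 in the empty vector libraries and 146 in WT. The 3 inhibitors together held 300, 319 and 233 CPM per kb in the fusion libraries, against 307, 286 and 237 in the empty vector libraries and 401 in WT. The ratio of proteases to inhibitors was 0.971, 1.85 and 3.05 with the fusion, against 0.351, 0.594 and 1.88 with empty vector and 0.365 in WT. It was higher with the fusion at each number, but the groups overlapped, because empty vector library 3 lay above fusion libraries 1 and 2. Without Mmp13 the ratio was 0.345, 0.469 and 1.10 with the fusion, against 0.294, 0.416 and 1.65 with empty vector and 0.335 in WT, so that the order of the groups at number 3 turned round. These sums describe the libraries and have no test. The mean log2 ratio was 1.27 higher with the fusion in all 6 libraries. Leaving out empty vector replicate 3 made this difference 1.95, and leaving out empty vector replicate 1 made it 0.74.

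Single pairs of an enzyme with an inhibitor were compared as log2 ratios of CPM + 0.5 in each library. Mmp13 to Timp1 was 2.52, 3.86 and 4.12 in fusion libraries 1, 2 and 3, against -0.66, 0.74 and 0.94 in the empty vector libraries and -1.68 in WT. Mmp9 to Timp1 was -4.56, -3.19 and -3.64 with the fusion, against -6.47, -5.59 and -5.80 with empty vector and -6.83 in WT. In both ratios every fusion library lay above every empty vector library, as in Mmp13 and Mmp9 by themselves. The log2 fold change of Timp1 was 0.06, so these ratios largely repeat the differences of the 2 proteases and are not separate evidence. The differences of 3.16 and 2.16 each had p = 0.1 in a two-sided exact permutation test, the smallest that 3 against 3 libraries allow, and 0.15 adjusted over the 3 ratios. Mmp14 to Timp2 was -1.21, -0.821 and -0.732 with the fusion, against -1.56, -0.997 and -0.891 with empty vector and -1.39 in WT. The fusion value was the higher at each of the 3 numbers, while the groups overlapped, with a difference of 0.23 (exact permutation p = 0.5). This test does not use the pairing by number.

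The other genes of the pathway were read from lists. Over all genes tested, edgeR gave 6.54% higher and 4.36% lower at an unadjusted p under 0.05, against which the unadjusted counts below stand. Of 18 further MMP, TIMP and related genes, 8 were tested and none passed with edgeR (2 lower at an unadjusted p under 0.05, 2 lower with DESeq2), with a median log2 fold change of -0.44. Mmp16 (-0.81) and the membrane-anchored MMP inhibitor Reck (-1.22) passed as lower with the replicate block (edgeR adjusted p = 0.0278 and 0.0058), as did 5.5% of all genes, and DESeq2 called 5.51% of genes in either direction. Reck lay at 2.92, 6.34 and 4.53 CPM in fusion libraries 1, 2 and 3, against 8.05, 13.6 and 9.63 CPM in the empty vector libraries and 8.14 CPM in WT. Every fusion library thus lay below every empty vector library, as in 6.65% of all genes, and DESeq2 also called Reck (-1.20, adjusted p = 0.0209) and Mmp16 (-0.83, 0.0151) lower without a block.

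Of the 16 genes of proenzyme activation and the plasminogen system, 10 were tested and none passed with edgeR (1 higher and 2 lower unadjusted, 1 higher and 2 lower with DESeq2), with a median of -0.24. Plau, the urokinase that starts plasmin formation, lay at 35.6, 36.7 and 57.6 CPM with the fusion, against 85.5, 72.4 and 86.3 CPM with empty vector and 72.5 CPM in WT. With the replicate block it passed as lower (-0.94, edgeR adjusted p = 0.0105), as did its inhibitor Serpine2 (-0.87, 0.0228). DESeq2 without a block called both lower as well (adjusted p = 0.0183 and 0.0153). All 15 ADAM and ADAMTS proteases were tested and none passed with edgeR (2 higher and 2 lower unadjusted, 1 higher and 1 lower with DESeq2, 2 lower with the block), with a median of -0.13.

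Among 10 surface partners and clearance genes, 9 were tested and 1 fell, Cav1, the coat protein of caveolae, where MMP14 is internalised. It lay at 237, 337 and 333 CPM in fusion libraries 1, 2 and 3, against 632, 732 and 930 CPM in the empty vector libraries and 1030 CPM in WT. The log2 fold change was -1.34 (edgeR adjusted p = 0.0321), against 0.353% of all genes called lower, and the median of the list was -0.20. Of 20 transcriptional regulators and cytokines known to act on MMP genes, 17 were tested and none passed with edgeR (1 higher and 3 lower unadjusted, 2 lower with DESeq2), with a median of -0.11. With the block Ets2 (1.06, edgeR adjusted p = 0.0013) and Rela (0.40, 0.0219) passed as higher, and 3 ETS factors, Etv1, Etv4 and Etv5, as lower. The 7 FOS and JUN genes of the list, which encode AP-1 subunits, had log2 fold changes of -0.35 (Jun) to 0.58 (Fosl2), 2 positive and 5 negative, and none passed with edgeR with or without the block. Fosl2 lay at 290, 479 and 245 CPM with the fusion, against 178, 274 and 225 CPM with empty vector and 193 CPM in WT (edgeR adjusted p = 0.575). Krt18, an epithelial keratin, was 1 of 7 epithelial markers tested to pass, with 5.92 ± 1.95 CPM with the fusion and 0.830 ± 0.542 CPM with empty vector (edgeR adjusted p = 0.0304). Of the 7, 6 had positive log2 fold changes, with a median of 0.84. With the block 2 passed as higher, as did 7.63% of all genes. None of the 10 fibroblast markers passed with edgeR, though all 10 had negative log2 fold changes, with a median of -0.70. Of them 3 were lower unadjusted (4.36% of all genes), 3 with DESeq2 and 5 with the block (5.5% of all genes). Their part in the MMP levels was not tested.

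The rest of the chromosome 9 cluster was nearly silent. Summed over the libraries of a group, Mmp12 had 22 reads in fusion, 34 in empty vector and 14 in WT, and Mmp8 had 17, 25 and 3. Mmp1a, Mmp1b and Mmp20 had at most 25 reads in any group, and Mmp7 had 0 in every library. Mmp27 was tested and lay at 0.394 ± 0.351 CPM with the fusion and 1.12 ± 0.996 CPM with empty vector (log2 fold change -1.59, edgeR adjusted p = 0.591). Within 2 Mb of the Mmp13 start, a stretch that earlier results of these data had pointed to, 14 of the 18 other tested genes had lower fitted values and 5 fell, where 0.353% of all genes were called lower, with a median log2 fold change of -1.73. With the replicate block 10 fell and 1 rose, where 5.5% were called lower and 7.63% higher. In all 14 the WT level lay between the group means, above the mean with the fusion and below that with empty vector. The nearest, Dcun1d5, whose start lies at -88.0 kb from that of Mmp13, had a log2 fold change of -2.40 (edgeR adjusted p = 0.0757) beside the 3.16 of Mmp13.

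**Figure D5:**
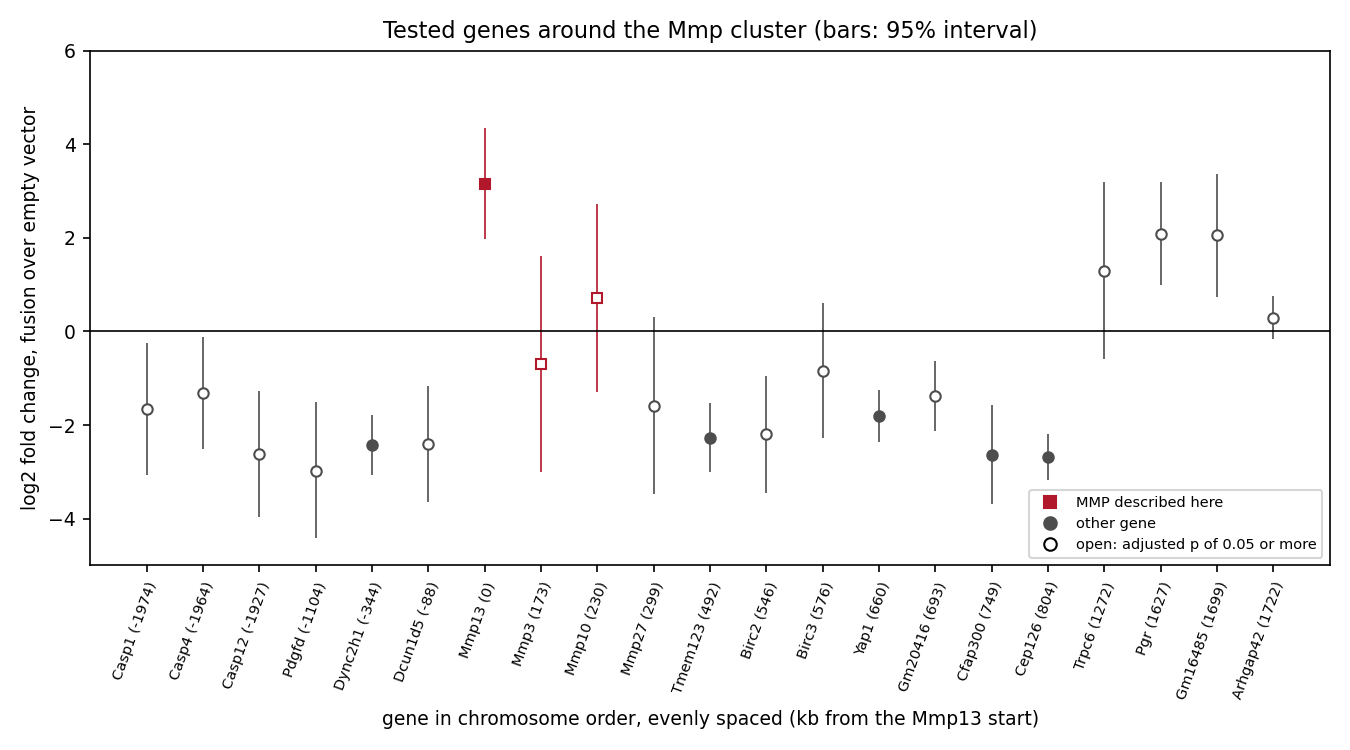
Log2 fold change of fusion over empty vector with its 95% interval for the 21 tested genes within 2 Mb of the Mmp13 start, in chromosome order and evenly spaced, with the distance in kb beside each name; filled points passed the test. Mmp13 (3.16) is the filled point above 0, and the 5 filled grey points lie between -2.68 and -1.80.

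The genes whose pattern over the 7 libraries was most like that of Mmp13, by Pearson correlation of log2(CPM + 0.5), were Blvrb (r = 0.996), Hsp25-ps1 (0.994) and Hspb1 (0.993). Blvrb encodes biliverdin reductase B and Hspb1 a small heat shock protein, and Hsp25-ps1 is a processed copy of Hspb1, so their reads may be shared. For Mmp9 they were Slc40a1 (0.991), the iron exporter ferroportin, Prr13 (0.990) and Spns1 (0.987), a lysosomal transporter. The points share the vector groups and the replicate numbers, so these values describe likeness across the 7 libraries and have no test.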

How the data were processed

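Polyadenylated RNA of the 7 libraries was sequenced as 50 bp single-end reads. The deposited tables hold whole-number read counts per gene and lane, made by the authors with STAR and HTSeq on GRCm38, per the submitters' processing notes; no source used here gives versions, annotation release or strand setting. Without the strand setting, reads of genes overlapping on opposite strands cannot be told apart. Reads with several alignments (36.1 to 45.3% of a library), ambiguous reads (1.22 to 1.48%) and reads outside genes (5.73 to 6.93%) were left out, so near-identical copies may be undercounted.

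The 12 lane tables were summed by library. Lanes of 1 library agreed within sampling noise (chi-square over degrees of freedom 0.979 to 1.01) and counted as 1 sample. Symbols, positions and exon lengths came from GENCODE M21 (GRCm38), with promoters from RefSeq. CPM use TMM factors over 7 libraries (0.944 to 1.036). Fusion and empty vector were compared in their 6 libraries with edgeR 4.0.16 (R 4.3.3), filterByExpr with a minimum count of 10, robust quasi-likelihood tests and Benjamini-Hochberg adjustment at 0.05 over all 16731 genes. WT comparisons used all 7 libraries, so the 3 comparisons share libraries and their calls are not compared. DESeq2 1.42.0, a replicate block and other settings were alternatives. Across genes, the deviations of same-numbered fusion and empty vector libraries had r = 0.659, 0.630 and 0.610 for numbers 1, 2 and 3. The replicate block therefore takes the numbers to pair the samples. The main fits have no block, and neither they nor the permutation tests use this pairing. It comes from the data, as no label names a shared batch. All members are named. Further genes were named by smallest adjusted p within their list among those past 0.05, by place in the Mmp cluster or by likeness to a called member. Reck, Mmp16, Plau, Serpine2, Ets2, Rela, the 3 Etv genes, Jun, Fosl2, the named fibroblast markers and Dcun1d5 were chosen after their values were seen. The members, lists and tests were chosen with earlier results of these data known. The limit for 0 reads is 3 counts and covers counting error only. Some of the epithelial markers are not reported here.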

Additional observations from a re-analysis of the deposited data

How the results depend on the processing

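Mmp13 and Mmp9 were higher with the fusion in every alternative run against empty vector. The count of genes called there was 2196 with the replicate block, 922 with DESeq2, 530 without the filter on low counts, 3276 with the block on numbers 1 and 2 alone (chosen after the data were seen) and 139 to 373 leaving out 1 library, against 341. With the replicate block, which called 13.1% of genes, Mmp13 and Mmp9 were called (edgeR adjusted p = 0.00011 and 0.0013). DESeq2, which called 5.51%, also called both (adjusted p = 2.9e-09 and 3.2e-06). On numbers 1 and 2 alone without the block neither was called (edgeR adjusted p = 0.0986 for Mmp13 and 0.162 for Mmp9), with 2 libraries a group in that fit. For empty vector over WT the count was 20, 77, 15 (block, DESeq2, no filter) and 0 to 5 leaving out 1 library, against 0. For fusion over WT it was 1642, 498, 245 and 1 to 118, against 73. In these comparisons the block sets WT with number 1, which no label states. Signs that turned belong to members whose intervals span 0, and the cause was not tested. Against empty vector these log2 fold changes were 0.05 for Mmp2, 0.15 for Mmp3 and 0.02 for Timp3 on numbers 1 and 2 alone, 0.17 for Mmp3 and 0.02 for Timp3 there with the block, and for Mmp11 -0.07 with the block, -0.01 with DESeq2, -0.01 with RLE size factors and -0.04 without the filter. Leaving out 1 library gave -0.30 to 0.16 for Mmp2, -1.90 to 1.34 for Mmp3, -0.48 to 0.23 for Mmp11, -0.02 to 0.14 for Timp1 and -0.08 to 0.30 for Timp2. For empty vector over WT the block gave -0.71 for Mmp3, -0.09 for Mmp9 and -0.03 for Mmp10, numbers 1 and 2 with WT gave -0.75 for Mmp3, and leaving out 1 library -0.75 to 1.81. For fusion over WT Mmp3 had -0.92 with the block, -0.62 on numbers 1 and 2 with WT and -0.62 to 0.96 leaving out 1 library, and Mmp14 had 0.04 on numbers 1 and 2 with WT and -0.19 to 0.07 leaving out 1 library. The block changed no other member's call than those given above. For fusion over WT, edgeR without the filter on low counts called Mmp13 and Mmp9, with log2 fold changes of 4.89 and 3.70. Of the fits leaving out 1 library there, only that without empty vector replicate 1 called Mmp13 (4.89), and none called Mmp9. DESeq2 gave no adjusted p for Mmp3 against empty vector. Depth limits Mmp9 most, which had 20 to 67 reads in an empty vector library.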
